A study of Mus musculus with 68 samples.

Results

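The genes described here encode the proteins of the cytosolic ribosome, as far as their symbols show it. They were chosen by name and by their measured mean level, from the deposited table of 37991 rows: symbols that start with Rpl or Rps and a digit, no pseudogene symbols, no Rps6k kinases, no Rps19 binding protein, and a mean of at least 5 CPM (reads of the gene per 1000000 reads of the library) over all 68 libraries. The naming rule gave 81 symbols, and 67 of them passed the level (39 Rpl genes of the large subunit and 28 Rps genes of the small subunit). The mean level therefore chose the members and is given only as a description. Just inside the threshold stood Rpl5 at 5.51 CPM and Rpl28 at 5.65 CPM, and just outside it stood Rps7 at 4.95 CPM and Rpl17 at 4.73 CPM. Among the 14 excluded genes, the paralogs Rpl39l (0.181 CPM), Rpl3l (0.171 CPM) and Rpl10l (0 in every library) were near or at 0.

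Each ribosome holds a small subunit, which reads the mRNA, and a large subunit, which joins amino acids. Its proteins are made in matched amounts and assembled on ribosomal RNA in the nucleolus. Vertebrate mRNAs of this class begin with a run of pyrimidines, the 5' terminal oligopyrimidine (TOP) element, through which growth signals control their translation, and the transcription factor Myc raises many of them. Their mRNAs are also the source of a large number of processed pseudogenes, copies without introns that have been inserted elsewhere in the genome.

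Total RNA of 25 mouse groups (68 libraries) was sequenced to compare sorted endothelium of healthy organs, and sorted endothelium of brain or spinal cord in 4 models of injury. Brain was sampled in epilepsy, in stroke by middle cerebral artery occlusion (MCAO) and in traumatic brain injury (TBI). Spinal cord was sampled in EAE, experimental autoimmune encephalomyelitis, an immune attack on myelin. Epilepsy, EAE and stroke had acute, subacute and chronic groups and 1 control group each (n = 3 per group), while TBI had acute, subacute and chronic groups (n = 3) with a control group per stage (n = 3, 2 and 2). Healthy groups were endothelial cells of heart, kidney, lung and liver, brain vascular libraries whose source is named brain endothelial cells, and brain endothelial libraries (n = 2 each), with whole brain (n = 4). The 2 brain endothelial libraries came from forebrain of adult male Rosa-tdTomato; VE-Cadherin-CreERT2 mice, in which tamoxifen turns on a red reporter in cells that use the endothelial VE-Cadherin promoter. Genotype, strain, age and sex are not given for the other 66 libraries, nor the method of injury beyond the model names. The labels do not say that libraries came from separate animals, so p-values measure only the spread between these libraries, which may be technical.

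Depth was 18.78 to 38.76 M reads per library, recovered from the CPM values, and 12.23 to 51.79% of reads fell on mitochondrial rRNA. Some libraries stood apart. Brain endothelial library 1 had the lowest depth (18.78 M reads) and a summed member level of 2089 CPM, against 3881 CPM in library 2. Its preparation differs from that of the other groups in the labels, so organ and preparation cannot be told apart in any comparison with brain endothelial cells. Epilepsy control 3 differed from the other two controls at several members, for example Rpl15 at 18.1 CPM beside 44.6 and 45.6 CPM in controls 1 and 2. In EAE, acute library 1 had 34.37% mitochondrial rRNA beside 12.23 and 14.81% in acute libraries 2 and 3. The summed level of 12 endothelial markers was 6680 to 15025 CPM in the sorted libraries and 125 to 190 CPM in whole brain. In such bulk libraries, fewer cells of a type and less RNA per cell cannot be told apart.

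Runs of pyrimidines can be seen at or near the annotated gene starts of many members. Whether such a run is the TOP element of the mRNA was not tested, because runs on either side of the start were counted. The sequences below are from RefSeq on the GRCm38.p6 build and run from 15 bases before the start to the first 15 bases of the transcript, on the strand of the gene. The first 5 show such a run in members of both subunits, and the last 3 show members whose levels or folds are described below and whose starts hold none. Capitals mark an unbroken run of C and T of at least 6 bases.
Rps9, chr7:3704026-3704055, plus strand: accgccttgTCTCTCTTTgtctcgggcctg
Rps24, chr14:24490663-24490692, plus strand: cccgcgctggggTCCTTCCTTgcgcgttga
Rpl14, chr9:120571502-120571531, plus strand: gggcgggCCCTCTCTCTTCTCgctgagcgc
Rps6, chr4:86857353-86857382, minus strand: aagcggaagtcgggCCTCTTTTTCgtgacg
Rpl22l1, chr3:28805493-28805522, plus strand: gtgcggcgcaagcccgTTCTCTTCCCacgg
Rps3, chr7:99483695-99483724, minus strand: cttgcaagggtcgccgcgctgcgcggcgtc
Rpl41, chr10:128549154-128549183, minus strand: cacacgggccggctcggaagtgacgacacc
Rpl36al, chr12:69184053-69184082, minus strand: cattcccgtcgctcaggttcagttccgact
The run was 14 bases long in Rpl14 and 9 bases long in Rps9 and Rps24, while no run of 6 or more is in these windows of Rps3, Rpl41 and Rpl36al. Of the 67 members, 49 had an entry in the promoter table, and 35 of them (71.4%) had a run of at least 6 C or T within 20 bases of the annotated start, against 41.2% of all 27025 genes. The median longest run was 9 bases in the members and 5 bases in all genes. The motif CCGGAA, searched on both strands from 250 bases before to 50 bases after the start, was in 26 members (53.1%) and in 16.7% of all genes. A match is a description of the letters, and no match says only that these letters are not in the window.

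Processed pseudogenes bear on the levels of members that have close copies, because a read that matches a member and its copy equally well could be counted on either row. How such reads were treated is not given in the sources used here. The table holds 172 pseudogene rows with a member-type symbol and the suffix -ps, and 34 of them had 5 CPM or more. For 16 of the 42 members with such rows, the pseudogene rows together held more reads than the member itself. Rpl3, a large-subunit protein at the peptidyl-transferase centre, had 18.8 CPM on its own row, against 210 CPM on that of its copy Rpl3-ps1. Rpl19, of the large subunit, had 13.8 CPM against 164 CPM on Rpl19-ps11. The large-subunit gene Rpl9 had 26.0 CPM against 90.1 CPM on Rpl9-ps6. Over the coding sequence, Rpl3 on chromosome 15 and its copy on chromosome X were identical at 99.8% of bases (1207 of 1209). The stretches below, from the GENCODE M21 transcripts, show how little separates each gene from its copy, with the base that differs in capitals.
Rpl3, coding bases 32 to 81: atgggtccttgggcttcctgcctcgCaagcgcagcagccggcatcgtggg
Rpl3-ps1, same bases: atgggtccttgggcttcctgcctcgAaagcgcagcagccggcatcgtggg
Rpl19, coding bases 166 to 215: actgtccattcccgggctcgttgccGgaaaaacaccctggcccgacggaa
Rpl19-ps11, same bases: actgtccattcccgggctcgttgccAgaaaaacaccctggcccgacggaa
Rpl28 (5.65 CPM, against 82.5 CPM on Rpl28-ps1) and Rpl38 (9.53 CPM, against 82.3 CPM on Rpl38-ps2) were identical to their copies over the whole coding sequence. The naming threshold was touched as well: Rps16 (1.95 CPM) and Rpl10a (4.06 CPM) fell outside it while their identical copies held 242 and 362 CPM.

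Levels per kilobase of transcript spread widely within the family. Matched to GENCODE M21, 66 members had a protein-coding transcript, and Rps4y2 had none. Among the highest mean levels per kilobase were those of Rpl41 (786 CPM per kb), which encodes the shortest ribosomal protein, and Rpl32 (500 CPM per kb), of the large subunit. The lowest was that of Rpl5 (2.69), the large-subunit protein that binds 5S rRNA and, outside the ribosome, Mdm2. The share of 50-base windows found in no other gene's transcript had a median of 44.5% over members, and was 97.0% in Rps3, 83.5% in Rpl4, 14.4% in Rpl3, 6.2% in Rpl5 and 1.4% in Rps27. By CPM alone, the measure of the rule, Rpl4 (580) and Rpl41 (344) were among the highest and Rpl5 (5.51), Rpl28 (5.65) and Rps10 (6.17) lowest. The 5 highest members held 42.2% of all member reads.

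**Figure D1:**
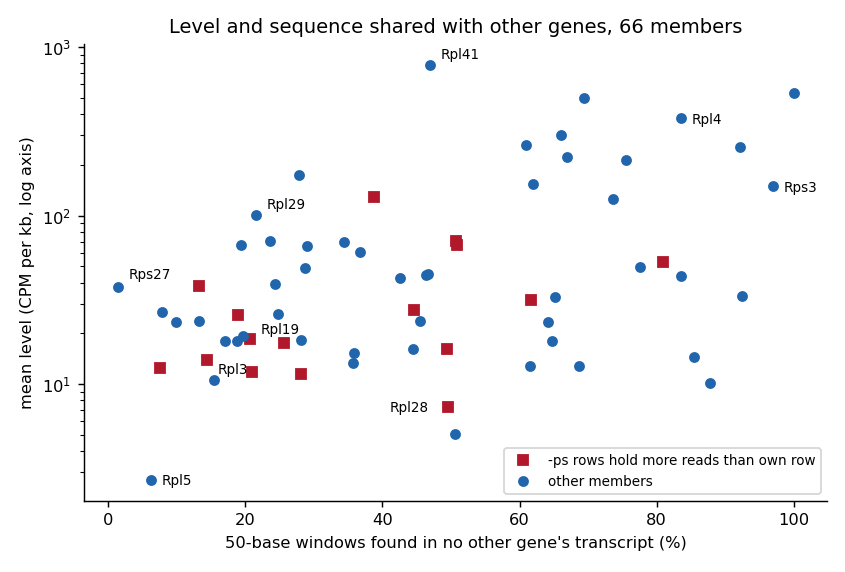
Each point is 1 of 66 members, with the percent of 50-base windows of its transcript that no other gene's transcript holds on the x axis and its mean level over 68 libraries in CPM per kilobase on a log y axis. Levels range from 2.69 to 786 CPM per kb, and the members were chosen by mean level, so the plot tests no relation between the axes.

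Across healthy organs, the summed level of the 67 members was highest in liver endothelial cells and lowest among sorted cells in the brain endothelial libraries. It was 8727 ± 194 CPM in liver, 7357 ± 392 CPM in lung, 7257 ± 163 CPM in heart, 5785 ± 275 CPM in kidney, 6114 ± 25.4 CPM in brain vascular and 2985 ± 1267 CPM in brain endothelial cells (mean ± SD, n = 2 each). Whole brain had 543 to 1877 CPM with a median of 1142 CPM (n = 4). The lung and heart libraries overlapped, while those of kidney and brain vascular cells did not (5590 and 5980 CPM against 6096 and 6132 CPM). These sums are led by few genes and describe the libraries without a test. Counted member by member over the 5 groups with the same described preparation, liver held the highest mean for 32 members, heart for 18, kidney for 8, lung for 5 and brain vascular for 4. Brain vascular held the lowest mean for 34 members and kidney for 26.

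**Figure D2:**
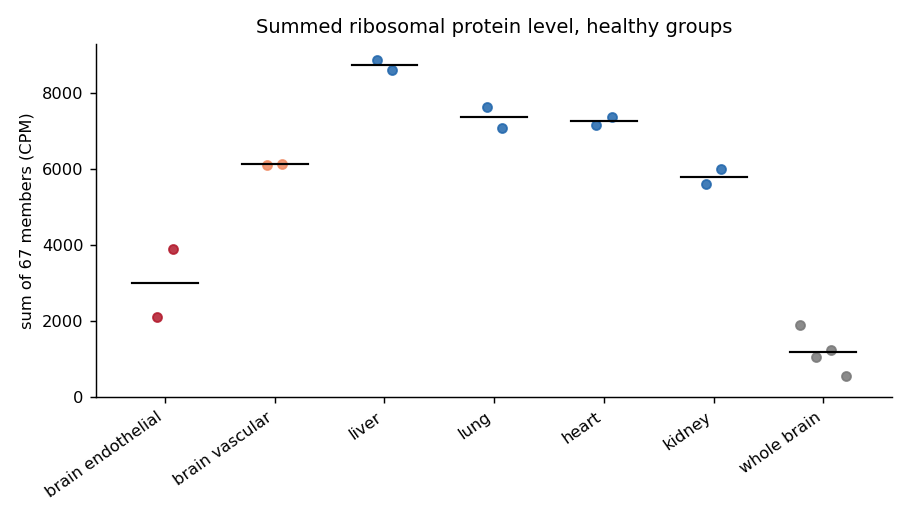
Each point is 1 healthy library, and the y axis gives the summed level of the 67 members in CPM, with horizontal lines at group means. Liver libraries lie at 8590 and 8864 CPM, and the 2 brain endothelial libraries at 2089 and 3881 CPM.

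In single-gene tests, few members separated brain vascular cells from the mean of heart, kidney, lung and liver. A member was called where limma on log2(CPM + 1) gave a Benjamini-Hochberg adjusted p under 0.05 over all genes tested. Here 5 of 67 members were lower and 0 higher, a share below the 15.4% of all 18141 genes that were lower. The median log2 fold was -0.31 over members and -0.14 over all genes. Rpl10, whose protein joins the large subunit late and helps to close the peptidyl-transferase centre, had 13 and 8.13 CPM in brain vascular cells, against 43.3 and 27.4 CPM in heart, 43.1 and 27.5 CPM in kidney, 24.8 and 28.8 CPM in lung, and 20.0 and 18.5 CPM in liver. Every brain vascular library was thus below every organ library (log2 fold -1.36 ± 0.25 SE, adjusted p = 0.00125). Rpl24 (-1.18, adjusted p = 0.00445), a large-subunit protein that bridges to the small subunit, and Rps12 (-1.15, adjusted p = 0.0439), of the small subunit, were lower too, as were Rpl9 (-1.05) and Rpl3 (-0.83). At Rpl24 the groups overlapped (38.1 CPM in brain vascular library 2, 34.2 CPM in liver library 1). The copy Rpl9-ps6 averaged 141 CPM in brain vascular cells, against 132 CPM in heart, 117 CPM in kidney, 139 CPM in lung and 204 CPM in liver. Rpl3-ps1 averaged 215 CPM, against 276, 231, 234 and 296 CPM in that order. With pseudogene rows added to the members, fewer than 5 were called lower. Rps13 and Rps15a sat at the members' median of -0.31. Without brain vascular library 1, 1 member was called. All 12 mural markers (pericyte and smooth muscle genes) were called higher in brain vascular cells, and their summed level was 4175 to 5190 CPM against 121 to 706 CPM in the organs. Microglia and macrophage markers were lower in 11 of 13 and cell cycle genes in 8 of 15. The part of these cells in the member values was not tested.

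Between the 4 organs, few single members were called. For heart, kidney and lung against the mean of the other three, 0 members were called, against 18.0, 16.9 and 11.8% of all genes. At an unadjusted p under 0.05 there were 4, 3 and 1, and edgeR on recovered reads called 1, 3 and 0. In a fit of only the 5 groups with the same described preparation, 8 members were called for kidney. Near the members' medians lay Rps28 (0.07) in heart, Rpl21 (-0.30) in kidney and Rpl38 (0.00) in lung. Rps6, the small-subunit protein that S6 kinases phosphorylate, had the smallest adjusted p in kidney, with 17.1 CPM in both kidney libraries, against 15.1 and 11 CPM in heart, 7.85 and 9.36 CPM in lung, and 8.63 and 11.4 CPM in liver (0.68, adjusted p = 0.0916). Liver had 1 member higher (7.60% of all genes were) and 2 lower (18.0% of all genes were), with a members' median of 0.23 near Rpl23. Rps3, a small-subunit protein at the mRNA entry that also takes part in DNA repair, had 598 and 575 CPM in liver. It had 305 and 331 CPM in heart, 239 and 245 CPM in kidney, and 330 and 314 CPM in lung, so that both liver libraries were above all others (1.01 ± 0.29, adjusted p = 0.0182). Rpl5 was lower in liver (1.88 against 5.40 CPM on average, -1.11, adjusted p = 0.0119), as was Rpl24 (-0.91, adjusted p = 0.0224). In liver, microglia and macrophage markers were higher in 8 of 13 (351 to 996 CPM) and mural markers lower in 6 of 12 (143 to 273 CPM), and their part was not tested. Over brain vascular cells and the 4 organs, the F test called 5 members, a share below the 40.3% of all genes: Rpl10 (F = 9.39), Rpl24 (8.54), Rpl5 (5.90), Rpl9 (5.60) and Rpl3 (4.43). The count was 15 in the fit of only the 5 groups of the same described preparation and 8 with quantile normalization or edgeR. Of these 5 named members, 1 had at least 50% unique windows. Rpl30, Rpl39, Rpl27a and Rpl26 were among the 5 with the smallest F.

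Brain endothelial cells had lower levels than the organ mean at 37 members, and higher levels at 0, where 20.6% of all genes were lower. The median log2 fold was -1.18 over members, near Rpl12 and Rps9, and -0.14 over all genes. Rpl32 had 25.8 and 149 CPM in brain endothelial cells, against 493 and 558 CPM in heart, 370 and 444 CPM in kidney, 572 and 460 CPM in lung, and 713 and 662 CPM in liver. Both brain endothelial libraries were below every organ library (-3.05 ± 0.59, adjusted p = 0.0013), and the fold was -1.80 (adjusted p = 0.063) without library 1. Rpl19 followed (-2.92 ± 0.46, adjusted p = 0.000248), with -1.94 (adjusted p = 0.0111) without library 1. In all, 5 members were called without brain endothelial library 1, so the count of 37 rests on that library. Rps6 (-1.12, adjusted p = 0.00363), Rpl4 (-1.29, adjusted p = 0.000749) and Rps27a (-1.48, adjusted p = 0.0441), which encodes a fusion of ubiquitin to a small-subunit protein, were among the 37. At Rps27a the groups overlapped (1.07 and 8.37 CPM in brain endothelial cells, 4.81 CPM in kidney library 2 and 6.31 CPM in liver library 2). Rpl3 (-0.26), Rpl13a (-0.83) and Rps3 (-0.64) did not pass. Cell cycle genes were lower in 9 of 15, microglia and macrophage markers in 11 of 13 (summed 15.5 to 18.6 CPM against 51.9 to 1962.5 CPM in the organs, 3 at 0 in brain endothelial cells) and mural markers in 5 of 12 (2 were higher, 671 to 757 CPM against 121 to 706 CPM), and their part in the member values was not tested.

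Against brain endothelial cells, the brain vascular libraries were higher at 6 members (4.12% of all genes were) and lower at 2 (3.64% of all genes were). The largest folds were those of Rpl32 (508 and 419 CPM in brain vascular cells against 25.8 and 149 CPM in brain endothelial cells, 2.86), Rpl19 (2.60) and Rps25 (2.43), a small-subunit protein used by viral internal ribosome entry sites. Rpl32 had 1.62 (adjusted p = 0.255) without brain endothelial library 1, and none of the 6 was called then. Rpl10 was the exception in direction, with 13 and 8.13 CPM in brain vascular cells against 42.9 and 43.2 CPM in brain endothelial cells (-1.96, adjusted p = 0.00279), a fold that was also -1.96 without that library (adjusted p = 0.0166). Rpl5 was lower as well (-1.36), and was not called without library 1 (-1.04, adjusted p = 0.187), while Rpl39 (0.80) and Rpl36 (0.83) lay at the members' median. Of 12 mural markers 11 were higher in the brain vascular libraries, and their part in these folds was not tested.

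Against whole brain, the brain endothelial libraries were higher at 45 members (25.1% of all genes were) and lower at 1 (32.6% of all genes were). The median log2 fold was 1.46 over members, at Rpl13a and Rpl22, and -0.11 over all genes. Rpl10 had 42.9 and 43.2 CPM in brain endothelial cells, against 2.12 to 3.13 CPM in the 4 whole brain libraries (3.66 ± 0.28, adjusted p = 3.3e-08). Rpl29, which encodes a heparin-binding large-subunit protein, averaged 109 CPM in brain endothelial cells and 13.1 CPM in whole brain (3.18, adjusted p = 4.48e-05). Rps27 averaged 13.6 CPM in brain endothelial cells and 0.696 CPM in whole brain (3.15, adjusted p = 4.72e-07). The 1 lower member, Rps15a, had 15.9 and 39.1 CPM in brain endothelial cells and 34.3 to 47.6 CPM in whole brain (-0.70, adjusted p = 0.0411), and -0.08 (adjusted p = 0.806) without brain endothelial library 1. Summed neuron markers were 4490 to 5507 CPM in whole brain and 12.2 to 234 CPM in the other groups, and their part in these folds was not tested.

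In the injury models, the group mean of the summed member level was highest at the subacute stage in epilepsy, EAE and stroke. In epilepsy it was 3773 ± 219 CPM in controls, 4289 ± 231 CPM at the acute, 5543 ± 461 CPM at the subacute and 4462 ± 322 CPM at the chronic stage (mean ± SD, n = 3). In EAE it was 2909 ± 86.6 CPM in controls, 4084 ± 652 CPM at the acute, 4379 ± 570 CPM at the subacute and 3901 ± 404 CPM at the chronic stage. In stroke it was 3911 ± 173 CPM in controls, 4357 ± 423 CPM at the acute, 4833 ± 278 CPM at the subacute and 4161 ± 356 CPM at the chronic stage. All subacute libraries of these 3 models were above all their controls. Subacute and acute libraries overlapped in EAE (3749.3 to 4858.5 against 3529.6 to 4802.3 CPM) and in stroke (4615.7 to 5146.5 against 3877.1 to 4676.5 CPM), but not in epilepsy. In EAE the mean of log2(CPM + 1) over members was 4.99 at the acute and 4.91 at the subacute stage. In TBI the sums lay at 4474 ± 439 CPM in subacute cells and 4534 ± 49.3 CPM in their controls, and the acute and chronic groups also overlapped theirs. Stages of a model share their controls, so their values are set side by side without a test across stages except where one is named.

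**Figure D3:**
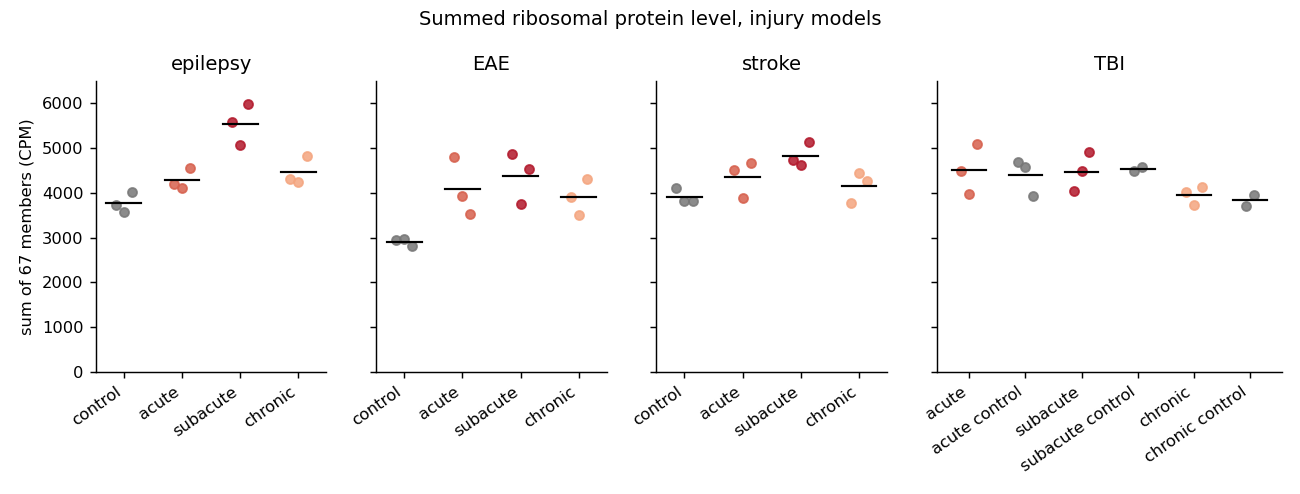
Each point is 1 library of an injury model, and the y axis gives the summed level of the 67 members in CPM, with horizontal lines at group means. Subacute libraries of epilepsy lie between 5066 and 5985 CPM, above the control libraries at 3581 to 4012 CPM, and TBI libraries overlap their controls at every stage.

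After acute epilepsy, 15 members were higher than in controls (11.6% of all genes were) and 3 lower (30.9% of all genes were). The median log2 fold was 0.20 over members, at Rps2 and Rps15a, and -0.22 over all genes tested, so members stood above a table that was shifted downward in CPM. Rpl7a, of the large subunit, had 16.6, 16.9 and 16.2 CPM in acute epilepsy, against 7.06, 6.86 and 12.5 CPM in controls (0.89 ± 0.20, adjusted p = 0.00224). Rpl12, from the base of the stalk where elongation factors bind, had 5.74, 6.42 and 6.44 CPM in acute epilepsy, against 2.96, 1.68 and 4.66 CPM in controls (0.88, adjusted p = 0.0117). Neither of these genes overlapped between the groups. Folds of the other higher members included 0.35 (Rps24) and 0.83 (Rpl36). Summed marker levels also separated acute epilepsy from its controls without overlap for astrocytes (131 to 138 CPM against 50.4 to 75.4 CPM, 1 of 4 tested called higher) and neutrophils (10.7 to 58.7 CPM against 1.09 to 5.42 CPM, 3 of 3 tested). Endothelial markers summed to 12667 to 13586 CPM in acute epilepsy against 10086 to 11129 CPM in controls, with 4 of 12 higher and 5 lower. Sums were lower for neurons (28.2 to 44.7 CPM against 45.3 to 84.5 CPM), oligodendrocytes (4.05 to 5.5 CPM against 8.97 to 11.7 CPM) and cell cycle genes (80.4 to 89.4 CPM against 102 to 119 CPM), and mitochondrial rRNA was 22.34 to 24.21% against 27.20 to 31.23%. The part of these in the member values was not tested.

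Among the 3 members that fell in acute epilepsy were Rpl15 and Rps13. Rpl15, of the large subunit, had 13.3, 19.0 and 13.5 CPM in acute epilepsy, against 44.6, 45.6 and 18.1 CPM in controls (-1.10 ± 0.27, adjusted p = 0.00455). Here the groups overlapped, because control 3 lay within the acute range, and the fold was -1.52 without it. Rps13, of the small subunit, had 10.8, 13.6 and 15.8 CPM in acute epilepsy, against 20.8, 20.0 and 17.7 CPM in controls (-0.52 ± 0.18, adjusted p = 0.0326). For Rps13, all acute libraries were below all controls. Of the core genes, Rpl3 (0.38), Rpl4 (0.27), Rpl13a (0.15), Rps3 (0.05), Rps6 (0.30) and Rps27a (0.44) did not pass. With quantile normalization 37 members were called higher, with edgeR 35, and 9 when mitochondrial rRNA was removed before scaling, so the number called at this stage depended on the scaling.

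At the subacute stage of epilepsy 16 members were higher (11.0% of all genes were) and 1 lower (4.67% of all genes were), with medians of 0.33 over members and 0.07 over all genes. Rpl7a had 21.7, 19.8 and 25.6 CPM in subacute epilepsy against the control values above (1.29 ± 0.20, adjusted p = 0.000638). Rps4x, the small-subunit gene on the X chromosome, had 250, 237 and 262 CPM in subacute epilepsy against 103, 90.6 and 174 CPM in controls (1.08 ± 0.18, adjusted p = 0.001). The libraries of the 2 groups did not overlap for either of these genes. Rpl4, a large-subunit protein that lines the exit tunnel, had the smallest adjusted p, with 889, 875 and 996 CPM in subacute epilepsy against 456, 478 and 518 CPM in controls (0.93 ± 0.11, adjusted p = 8.49e-05). Rpl13a, which in human monocytes also takes part in silencing of inflammatory mRNAs, had 49.9, 44.3 and 60.4 CPM against 35.6, 33.7 and 42.8 CPM in controls (0.45, adjusted p = 0.047). Rps3 rose by a log2 fold of 0.42 (adjusted p = 0.0402), and Rpl22 lay at the median of 0.33. Rps13 fell again, to 9.41, 9.24 and 11.1 CPM in subacute epilepsy (-0.91 ± 0.18, adjusted p = 0.00373).

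Cell cycle genes and fibroblast markers moved at the subacute stage, while the sums of microglia and macrophage markers and of mural markers overlapped with controls. Of 15 cell cycle genes 14 were higher and 1 lower in subacute epilepsy, and their summed level was 213 to 341 CPM against 102 to 119 CPM in controls. Fibroblast markers were higher in 4 of 6 tested (83.1 to 127 CPM against 23.2 to 49.9 CPM), microglia and macrophage markers in 0 of 13 (61.5 to 532 CPM against 47.2 to 247 CPM) and mural markers in 1 of 12 (5198 to 6020 CPM against 3798 to 5654 CPM). Their part in the member values was not tested. At the chronic stage 0 members were called, against 0.0655% of all genes. There 18 had an unadjusted p under 0.05, edgeR called 0, and limma called 12 without control 3. Rpl34 and Rpl38 lay at the members' median of 0.14.

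**Figure D4:**
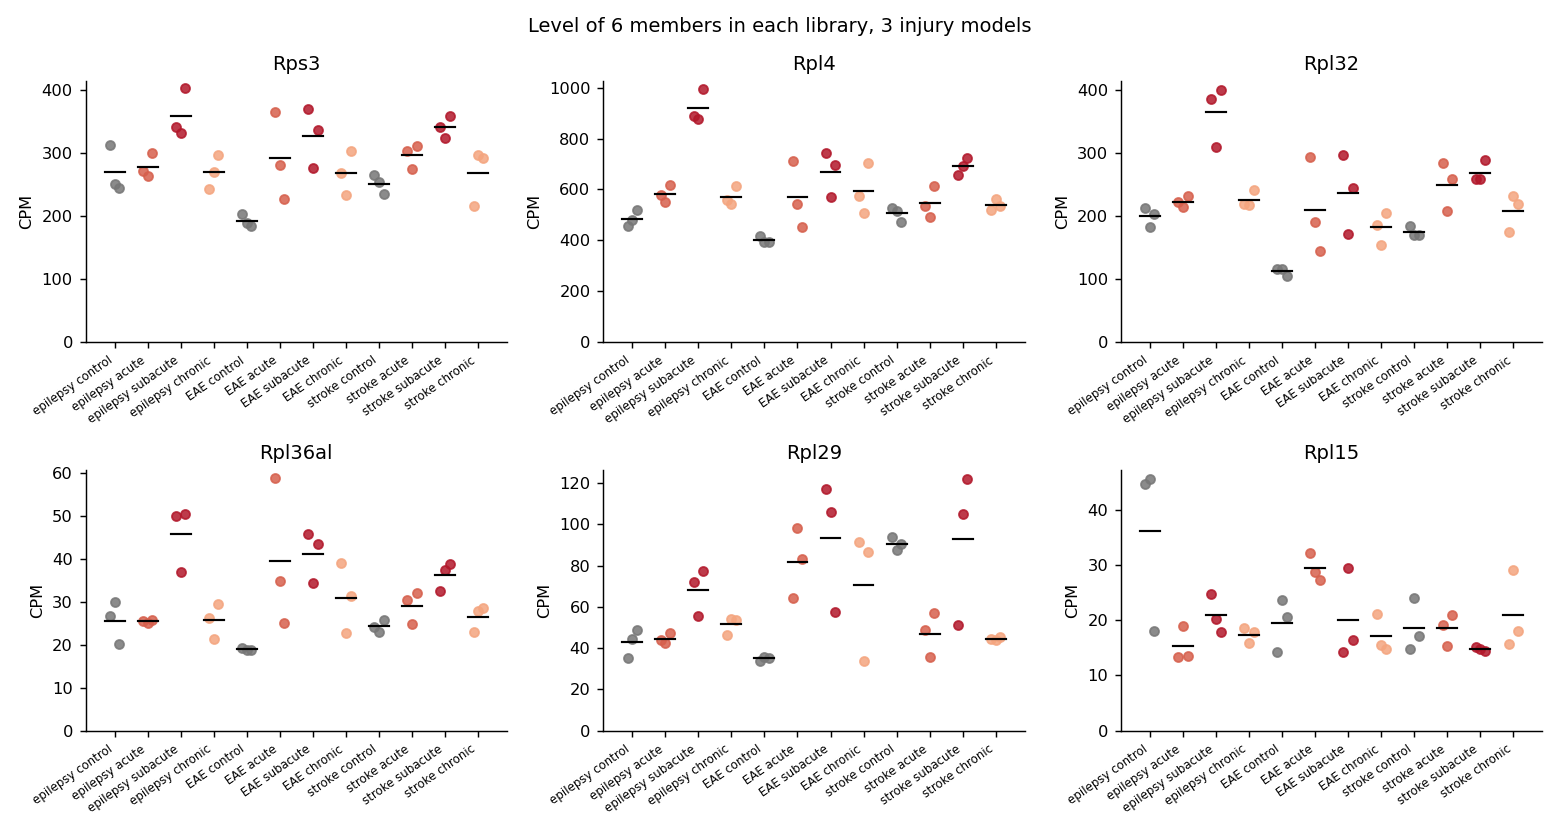
Each panel shows 1 member (Rps3, Rpl4, Rpl32, Rpl36al, Rpl29 or Rpl15), with 1 point per library in CPM for epilepsy, EAE and stroke from control to chronic stage and horizontal lines at group means. Rpl4 in epilepsy lies at 456 to 518 CPM in controls and at 875 to 996 CPM at the subacute stage.

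Directly between the stages of epilepsy, 11 members were higher in subacute than in acute cells (37.9% of all genes were) and 6 lower (11.8% of all genes were). The median log2 fold was 0.14 over members and 0.33 over all genes in CPM, and it turned to -0.25 over members with quantile normalization and to -0.19 with edgeR, where all genes had 0.00 and 0.04. Rps27l, a p53 target and paralog of Rps27, had 40.3, 26.0 and 31.0 CPM in subacute cells, against 14.8, 16.0 and 17.0 CPM in acute cells (0.96 ± 0.23, adjusted p = 0.00295). Rpl36al, an autosomal paralog of the X-linked Rpl36a, had 50.1, 37.0 and 50.4 CPM in subacute cells, against 25.6, 25.2 and 25.9 CPM in acute cells (0.81, adjusted p = 0.00139). Rpl32 had 386, 309 and 399 CPM in subacute cells, against 222, 214 and 231 CPM in acute cells (0.70, adjusted p = 0.000178). All 3 were separated without overlap between the stages. Rpl4 (0.66) and Rps3 (0.36) were also called. Rpl36, of the large subunit, fell to 6.08, 5.62 and 7.21 CPM in subacute cells, against 11.3, 14 and 14 CPM in acute cells (-0.95 ± 0.30, adjusted p = 0.0169). Rpl3 fell to an average of 13.4 CPM in subacute cells, against 22.7 CPM in acute cells (-0.69, adjusted p = 0.0171), and Rps28 fell as well (-0.61, adjusted p = 0.0215). The direction of Rpl3 and Rpl36 changed with the reads of pseudogene copies: summed with its pseudogene rows, Rpl3 was higher (0.49, adjusted p = 0.00921) and Rpl36 stood at 0.08 (adjusted p = 0.704).

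In EAE the acute stage gave 0 called members, against 1.25% of all genes, although 62 of 67 had a positive log2 fold and 25 an unadjusted p under 0.05 (edgeR called 0). The median was 0.37 over members, at Rpl13 and Rps2, and 0.05 over all genes. Rps27l came nearest, with 32.0, 24.8 and 19.3 CPM in acute EAE against 11.8, 12.9 and 9.51 CPM in controls (1.07 ± 0.24, adjusted p = 0.0508). These groups did not overlap. Without acute library 3, 4 members were called.

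Subacute EAE had 14 members higher and 0 lower, where 8.06% of all genes were higher. The medians were 0.35 over members, at Rpl18 and Rps15a, and 0.01 over all genes. Rpl29 had 117, 106 and 57.4 CPM in subacute EAE, against 34.0, 35.9 and 35.1 CPM in controls (1.33 ± 0.35, adjusted p = 0.0274). Rpl41 had 349, 278 and 354 CPM in subacute EAE, against 144, 136 and 155 CPM in controls (1.16 ± 0.17, adjusted p = 0.00167). Rpl36al had 45.8, 34.3 and 43.5 CPM in subacute EAE, against 19.3, 18.9 and 18.9 CPM in controls (1.06 ± 0.27, adjusted p = 0.0247). All subacute libraries were above all controls at these 3 genes, and subacute library 2 was the lowest of its group at Rpl41 and Rpl36al. Rpl32 (1.04), Rps27l (0.81), Rps3 (0.76, adjusted p = 0.0242) and Rpl4 (0.73, adjusted p = 0.033) were among the others. Rpl3 (-0.08), Rps6 (-0.25) and Rps27a (-0.14) did not pass. The count was 1 to 3 without any 1 control or without subacute library 1 or 3, and 19 without subacute library 2. It was 4 with quantile normalization and 5 with edgeR. Cell cycle genes were higher in 12 of 15 (255 to 574 CPM against 119 to 137 CPM in controls), and fibroblast markers in 1 of 8 (669 to 3729 CPM against 314 to 915 CPM). Mural markers were higher in 1 and lower in 2 of 12 (2808 to 3090 CPM against 4640 to 5336 CPM). With 0 markers called, summed levels did not overlap for endothelial markers (8164 to 8606 CPM in subacute EAE against 11072 to 11357 CPM in controls), astrocytes (165 to 237 CPM against 116 to 143 CPM), neurons (17.1 to 21.9 CPM against 23.1 to 26.4 CPM) and red blood cells (21.7 to 150 CPM against 174 to 228 CPM). The part of these cells in the member values was not tested.

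At the chronic stage of EAE 0 members were called, against 2.46% of all genes. There were 17 at an unadjusted p under 0.05, and edgeR called 1. Rpl41 was nearest, with 264, 199 and 245 CPM in chronic EAE, above the controls in every library (0.69, adjusted p = 0.0509), and Rpl23 and Rpl26 lay at the median of 0.27. Directly between subacute and acute EAE, 0 members passed, against 0.103% of all genes (7 at an unadjusted p under 0.05, 0 by edgeR), with Rpl30 and Rpl37a at the median of -0.07.

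Stroke gave smaller folds. At the acute stage 0 members were called, against 1.42% of all genes (14 at an unadjusted p under 0.05, 1 by edgeR, 7 with mitochondrial rRNA left out before scaling). Rpl6, of the large subunit, had the smallest adjusted p (20.4 CPM in acute stroke against 14.1 CPM in controls on average, 0.51, adjusted p = 0.0588), and Rpl38 lay at the median of 0.12. Rpl29 went the other way from most members, with 48.6, 35.5 and 56.9 CPM in acute stroke against 93.8, 87.4 and 90.4 CPM in controls (-0.96, adjusted p = 0.0609). It was below all stroke controls in all 3 acute and all 3 chronic libraries, with 44.3, 44.1 and 45.3 CPM in the chronic ones (-1.01, adjusted p = 0.161). These stroke controls were above every control library of the other models, which had 34.0 to 51.2 CPM. Rpl29 also spread widely within some groups, as in chronic EAE (91.4, 33.6 and 86.7 CPM). The source of this spread was not tested.

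Subacute stroke had 7 members higher and 0 lower, where 3.66% of all genes were higher. The medians were 0.20 over members, near Rpl18 and Rps15a, and -0.14 over all genes. Rpl32 had 259, 259 and 288 CPM in subacute stroke, against 184, 170 and 169 CPM in controls (0.62 ± 0.14, adjusted p = 0.0156). Rpl36al had 32.6, 37.4 and 38.8 CPM in subacute stroke, against 24.2, 23.0 and 25.7 CPM in controls (0.56 ± 0.13, adjusted p = 0.0234). Rps26, a small-subunit protein at the mRNA exit channel, had 20.0, 20.4 and 24.8 CPM in subacute stroke, against 13.5, 15 and 15.5 CPM in controls (0.53 ± 0.13, adjusted p = 0.0281). None of the 3 overlapped with controls. Rpl7, Rpl4 (0.45, adjusted p = 0.0342), Rps4x and Rps24 were the remaining 4, with folds of 0.39 to 0.46, and Rps3 missed the threshold at 0.44 (adjusted p = 0.0532). The count fell to between 0 and 3 whichever 1 library was left out, and it was 12 with quantile normalization, 13 with edgeR and 16 with mitochondrial rRNA left out. Mitochondrial rRNA was 33.43 to 39.35% in subacute stroke against 23.63 to 31.01% in controls. Fibroblast markers were higher in all 6 tested (401 to 1158 CPM against 19.1 to 36.8 CPM in controls) and cell cycle genes in 8 of 12 (117 to 208 CPM against 93.6 to 99.5 CPM). Endothelial markers were lower in 2 of 12 (summed 7280 to 9148 CPM against 9925 to 11494 CPM) and neuron markers in 1 of 3 tested (27.6 to 33.1 CPM against 41.3 to 67.3 CPM). The part of these in the member values was not tested.

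At the chronic stage of stroke 0 members were called, against 0% of all genes (3 at an unadjusted p under 0.05, 0 by edgeR), and Rpl4 and Rps4x lay at the median of 0.09. Between subacute and acute stroke 0 passed as well, against 4.22% of all genes (8 at an unadjusted p under 0.05, 1 by edgeR). Rpl29 was nearest, with 51.3, 105 and 122 CPM in subacute cells against 48.6, 35.5 and 56.9 CPM in acute cells (0.90, adjusted p = 0.0541), and the stages overlapped. Rpl41 and Rps4y2 lay at the median of 0.03.

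TBI moved few members. At the acute stage 2 were lower and 0 higher, where 1.95% of all genes were lower, and the medians were 0.05 over members, at Rps27l and near Rpl36, and -0.03 over all genes. Rps27, of the small subunit, had 7.86, 8.18 and 9.94 CPM in acute TBI, against 21.2, 17.8 and 13.8 CPM in its controls (-0.93 ± 0.22, adjusted p = 0.0255). Rps27 was below every acute control in all acute libraries. The controls of the other TBI stages were lower than the acute controls, with 12.0 and 6.76 CPM (subacute) and 10.2 and 7.63 CPM (chronic). The share of unique windows of Rps27 was 1.4%, and its call did not hold without acute library 2, control 1 or control 2. Fibroblast markers were higher in 4 of 8 (134 to 358 CPM in acute TBI against 61.5 to 102 CPM in its controls) and mural markers in 0 of 12 (1470 to 9237 CPM against 1048 to 7890 CPM). Without any called marker, the summed levels did not overlap for red blood cells (2880 to 3940 CPM in acute TBI against 4630 to 4736 CPM in its controls), astrocytes (137 to 208 CPM against 86.3 to 119 CPM) and neurons (13.6 to 26.4 CPM against 31.0 to 36.2 CPM). The part of these cells in the member values was not tested. In subacute TBI 0 members were called, against 1.36% of all genes (4 at an unadjusted p under 0.05, 0 by edgeR). Rpl4 had 662, 638 and 727 CPM in subacute TBI, against 585 and 544 CPM in its controls (0.26, adjusted p = 0.526), and Rps18 and Rpl19 lay near the median of -0.05. At the chronic stage 0 were called, against 0% of all genes (2 at an unadjusted p under 0.05, 0 by edgeR), with Rpl35a and Rpl7l1 at the median of 0.04. The difference between the subacute and the acute change called 0 members, against 0.0212% of all genes (3 at an unadjusted p under 0.05, 0 by edgeR), with Rpl14 at the median of -0.09.

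**Figure D5:**
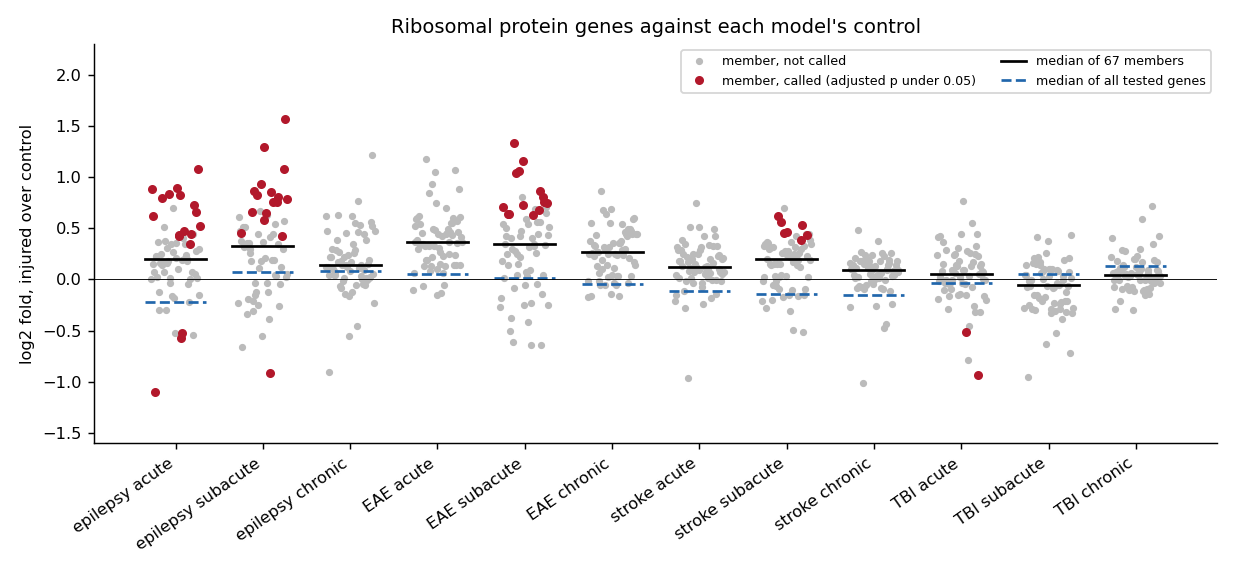
Each point is 1 member's log2 fold on the log2(CPM + 1) scale against the control group of its model, for every model and stage, with the median of members and of all genes tested marked. At the subacute stage the members' medians are 0.33 in epilepsy, 0.35 in EAE, 0.20 in stroke and -0.05 in TBI.

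Whether members responded alike in the 4 models was tested with an F test on the folds, each model against its own control. At the acute stage 15 members (22.4%) differed between models, below the 31.3% of all genes that did. Rpl29 was the most different (log2 folds 0.07 in epilepsy, 1.18 in EAE, -0.96 in stroke and -0.03 in TBI, F = 10.74, adjusted p = 0.000286). Rps27l had -0.54, 1.07, 0.33 and 0.05 in that order of models (F = 9.14, adjusted p = 0.000842), and Rpl15 had -1.10, 0.60, 0.01 and 0.42 (F = 7.06). For Rpl29, the controls themselves differed, with 87.4 to 93.8 CPM in stroke and 34.0 to 51.2 CPM in the other models. In the subacute groups 7 (10.4%) differed, near the 7.46% of all genes, led by Rpl8, a large-subunit protein near the peptidyl-transferase centre, with 0.65 in epilepsy, 0.54 in EAE, 0.22 in stroke and -0.29 in TBI (F = 9.43, adjusted p = 0.00526). Without epilepsy control 3, 18 differed at that stage. EAE cells came from spinal cord and those of the other models from brain, so model and region cannot be told apart.

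In the subacute groups 21 members were called higher in at least 1 of epilepsy, EAE and stroke, and 5 of them in all 3: Rpl4, Rpl32, Rpl36al, Rps24 and Rps26. These 5 were singled out after their values were seen, and the overlap was not tested. They make up 31.2% of the members higher in epilepsy, 35.7% of those higher in EAE and 71.4% of those higher in stroke. In TBI the folds of the same genes at that stage were 0.14 for Rpl32, 0.08 for Rpl36al, 0.03 for Rps24, 0.19 for Rps26 and 0.26 for Rpl4, and none passed. Of the starts printed above, that of Rps24 holds a run of 9 pyrimidines and that of Rpl36al none of 6 or more.

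Paralogs among the members are given with their values. Rpl22l1, which can stand in for Rpl22 in the large subunit, had 26.5, 25.4 and 27.7 CPM in subacute epilepsy against 34.5, 42.6 and 26.4 CPM in controls, while Rpl22 had 118, 105 and 129 CPM against 113, 92.9 and 75.4 CPM. Both overlapped with controls and neither was called. In liver, Rpl22l1 reached 89.6 and 127 CPM and Rps27l 95.6 and 67.5 CPM. Rpl7l1, a paralog of Rpl7, stayed between 3.25 and 23.4 CPM over all libraries. Rps4y2 (identifier ENSMUSG00000063171), which GENCODE M21 lists as Rps4l and as a transcribed processed pseudogene, varied between 0.542 and 31.3 CPM, and was higher in subacute than in acute epilepsy (0.56). It passed the rule by its symbol, and in this annotation it is no protein-coding gene.

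Ribosomal proteins whose names fall outside the rule were counted apart from the members. Of 7 such genes, 3 were higher in acute epilepsy, 4 in subacute epilepsy, 3 in subacute EAE, 3 in subacute stroke and 2 in acute TBI, and 0 were lower in any of these. The shares of all genes that were higher were 11.6, 11.0, 8.06, 3.66 and 3.50% in that order. Rplp0, the acidic stalk protein, averaged 52.3 CPM in acute epilepsy and 31.3 CPM in controls (0.72, adjusted p = 0.000368), and its fold was 1.11 in subacute epilepsy, 0.96 in subacute EAE and 0.71 in subacute stroke. In acute TBI it was 0.61 (67.8 against 43.5 CPM, adjusted p = 0.0266). Rpsa, the small-subunit protein also known as the laminin receptor precursor, rose by 1.18 in subacute epilepsy (adjusted p = 8.26e-05) and by 1.11 in subacute EAE (adjusted p = 0.00462). It was also higher in acute EAE (28.6 against 13.9 CPM, 0.98, adjusted p = 0.0365), where 0 members were called.

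The proteins of the mitochondrial ribosome, which is built from a separate set of nuclear genes, were counted apart. Of 77 tested, 2 were higher and 36 lower in acute epilepsy, where 11.6% of all genes were higher and 30.9% lower, and the median was -0.56 over this list and -0.22 over all genes. Their difference from the members was not tested. Examples are Mrps21 (-0.99, adjusted p = 0.000148) and Mrpl10 (-1.08, adjusted p = 0.000173). In the subacute stage 13 were higher in epilepsy, 11 in EAE and 2 in stroke, against 11.0, 8.06 and 3.66% of all genes, and 0 were lower. Between subacute and acute epilepsy 57 were higher, where 37.9% of all genes were (median 0.87 over this list and 0.33 over all genes), with Mrpl11 at 1.87 (adjusted p = 1.66e-06). Brain endothelial cells had 22 lower and 1 higher than the organ mean, where 20.6% of all genes were lower.

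Genes that act with the ribosome were counted as well, to be read against the same shares of all genes, with 30.9% lower in acute and 4.67% lower in subacute epilepsy. Of 12 elongation factors and other genes with TOP mRNAs, 5 rose in acute and 7 in subacute epilepsy (1 fell), 3 in subacute EAE (1 fell) and 4 in subacute stroke. Eef1a1, which brings aminoacyl-tRNA to the ribosome, rose by 0.87 in acute epilepsy (adjusted p = 0.000129), and Eef1g by 0.87 in subacute epilepsy (adjusted p = 0.000214). Of 30 initiation factors, 8 rose and 1 fell in acute epilepsy and 13 rose and 1 fell in subacute epilepsy. Eif4ebp1, an inhibitor of the cap-binding protein eIF4E, rose by 2.02 in acute epilepsy (adjusted p = 4.32e-06), where its paralog Eif4ebp2 fell (-1.08, adjusted p = 0.000324). Of 40 ribosome biogenesis genes, 4 rose and 5 fell in acute epilepsy, 5 rose in subacute epilepsy, 2 in subacute EAE, 1 in subacute stroke and 11 in acute TBI (3.50% of all genes were higher there). In acute epilepsy the 4 that rose were a share near that of all genes, and the 5 that fell a share below it. Myc rose by 2.07 in subacute epilepsy (adjusted p = 0.00154), by 2.71 in subacute EAE (adjusted p = 0.000133) and by 1.87 in subacute stroke (adjusted p = 0.00126). Myc was also higher in acute EAE (1.32, adjusted p = 0.0226) and chronic EAE (2.73, adjusted p = 0.000237), where 0 members were called. It was lower than the organ mean in brain vascular cells (-2.95, adjusted p = 0.00164) and in brain endothelial cells (-4.93, adjusted p = 1.55e-05). In acute TBI, Rrp12, which in yeast takes part in the export of pre-ribosomes, rose by 0.99 (adjusted p = 0.0015), where 0 members rose. Of 6 snoRNA host genes 2 rose in acute epilepsy and 3 fell in subacute epilepsy, among them Gas5 (-0.77, adjusted p = 0.0107). Of 10 genes of the integrated stress response, which lowers initiation, 4 rose in acute epilepsy, such as Asns (1.95, adjusted p = 2.87e-06) and Atf4 (0.95, adjusted p = 0.000264), and 7 were lower in subacute than in acute epilepsy.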

How the data were processed

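Transcript levels were measured by RNA-seq of total RNA. The deposited table gives CPM values scaled by the authors, 1 column for each library, and each column sums to 1000000. Per the submitters' processing notes, mm9, Subread, featureCounts and TopHat2 2.0.13 were used, with no role given. Dividing each CPM value by the smallest of its library gave whole reads (100.0% of 1374704 nonzero values within 0.001 of a whole number) and a depth of 18.78 to 38.76 M reads per library. Because the unit is CPM, log2(CPM + 1) was tested with limma-trend (limma 3.58.1, R 4.3.3), a scale that understates the folds of low genes. Tested genes exceeded 1 CPM in 3 or more libraries (epilepsy, EAE, stroke) or in 2 or more (TBI, healthy groups, all injury groups), and all 67 members passed in every comparison. The groups of each model entered 1 fit together. The p-values were two-sided and adjusted by Benjamini-Hochberg over all genes tested, and 27 comparisons were made. The members and the gene lists were chosen with earlier results of these data known. The mitochondrial list was kept by symbol start and holds a few pseudogene rows. Named genes were, per comparison, up to 3 called members with the largest rise and 3 with the largest fall and the 2 nearest the median, plus core genes, paralogs, and the extremes of level and F. Results of some genes that the rule names are not reported here. Any other member named was picked with its values known. Alternatives were quantile normalization, mitochondrial rRNA left out before scaling, edgeR 4.0.16 on the recovered reads, no filter, a pseudocount of 0.1, a replicate block, and leaving out each library. A sum of each member with its pseudogene rows, and a fit of only the 5 groups of 1 preparation, were chosen after seeing the data. Sequence shares and start sequences were computed in Python 3.11.15, and the model fits were tested on simulated data.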

Additional observations from a re-analysis of the deposited data

Results flagged for a closer look

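An F test on the folds called some members as different between the 4 injury models, in shares that were below or near that of all genes. At the acute stage 15 of 67 members (22.4%) differed, against 31.3% of all genes, and the range was 10 to 21 with any 1 library left out. At the subacute stage 7 members (10.4%) differed, against 7.46% of all genes, with a range of 4 to 18. Both are listed because the test is of the difference between models itself, whatever each model shows alone. Of 53 checks for a whole brain library far from the other three, none found one.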

How the results depend on the processing

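Counts of called members depended on the scaling. Lower in brain vascular cells than in the organs were 5, and 3 with quantile normalization, mitochondrial rRNA left out, edgeR, a pseudocount of 0.1 or pseudogene rows added, and 10 with only the 5 groups of 1 preparation. In heart the count of 0 became 1 with quantile normalization, mitochondrial rRNA left out, edgeR or the 5 groups. In kidney 0 became 1 with quantile normalization or mitochondrial rRNA left out, 3 with edgeR and 8 with the 5 groups. Lower in liver were 2, and 1 with quantile normalization, edgeR or pseudogene rows, and 4 with the 5 groups. The organ F count of 5 became 8 with quantile normalization or edgeR, 2 with pseudogene rows and 15 with the 5 groups. Higher in brain vascular than in brain endothelial cells were 6, and 13, 21 and 11 with quantile normalization, mitochondrial rRNA left out and edgeR, 2 with no filter and 10 with pseudogene rows. In acute epilepsy 15 became 37, 9 and 35 in that order of scalings. In acute EAE 0 became 1 with mitochondrial rRNA left out and 2 with the other pseudocount. In subacute EAE 14 became 4 with quantile normalization, 5 with edgeR and 7 with no filter, and in chronic EAE 0 became 1 with all 3 scalings. In stroke the acute 0 became 2, 7 and 1 and the subacute 7 became 12, 16 and 13 in the order used above. In acute TBI 2 became 0 with no filter. Between subacute and acute epilepsy 11 became 23 with mitochondrial rRNA left out, 4 with edgeR and 21 with pseudogene rows, and in stroke 0 became 1 with edgeR. The subacute F count of 7 became 4 with edgeR and 12 with pseudogene rows. The members' median between subacute and acute epilepsy turned to -0.25 with quantile normalization and -0.19 with edgeR, where all genes had 0.00 and 0.04. Summed with pseudogene rows, Rpl3 (0.49) and Rpl36 (0.08) turned there, and Rps15a (0.11) against whole brain. The causes were not tested. Correlations of same-numbered libraries spread on both sides of 0. With so few libraries per group, this check cannot tell whether replicate numbers pair the samples. The fit with a replicate block gave 1 in acute EAE and 1 in acute TBI. With 1 library left out, counts ranged from 1 to 6 for brain vascular cells, 0 to 1 for heart, 0 for kidney and lung, 0 to 4 for liver, 3 to 5 for the organ F, 5 to 43 for brain endothelial cells, 29 to 55 against whole brain and 0 to 25 between the brain sorts. In epilepsy they were 8 to 19 at the acute, 14 to 22 at the subacute and 0 to 12 at the chronic stage, and 9 to 13 between stages. In EAE they were 0 to 4, 1 to 19 and 0 to 1, and 0 to 2 between stages. In stroke they were 0 to 1, 0 to 3 and 0 to 1, and 0 to 2 between stages. In TBI they were 0 to 2, 0 and 0. The F counts were 10 to 21 (acute) and 4 to 18 (subacute). Of 572 alternatives to 42 called folds of named members, 462 kept direction and call, 107 lost the call and 3 turned.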
